A study of Homo sapiens with 15 samples.

Results

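The Eph receptors and their ephrin ligands were examined in 15 RNA-Seq libraries of MDA-MB-468, an established human triple-negative breast cancer cell line with a high level of EGFR. The members are 10 genes taken by symbol, 7 receptors (EPHA1, EPHA2, EPHA4, EPHB2, EPHB3, EPHB4 and EPHB6) and 3 ligands (EFNA1, EFNB1 and EFNB2), each matched to 1 Ensembl gene of the 61552 in the counts table. The drug experiment compared serum-starved cells stimulated with 10 ng/mL EGF alone (EGF), with EGF and 10 μM of the peptide cSNX1.3 (cSNX1.3), or with EGF and 15 μM erlotinib (erlotinib), after 12 h of treatment. By the study, cSNX1.3 can keep EGFR from binding Sorting Nexin 1 and lowers the amount of EGFR in the nucleus (nEGFR), which it tracked in T47D breast cancer cells. The study calls it probable that the peptide also affects other protein interactions. Erlotinib inhibits the EGFR tyrosine kinase. No sequenced group received a control peptide, such as the cPTD4 of the study's other assays. Effects of cSNX1.3 and of exposure to a peptide cannot be told apart here. In the line experiment, both groups carried an shRNA against endogenous EGFR and an introduced EGFR-GFP construct, which was wildtype (shEGFR-WT, referred to as WT) or mutated in its nuclear localization signal (shEGFR-NLS, referred to as ΔNLS), and were treated with EGF. By the study's methods the shRNA was induced with IPTG, which was kept on the cells throughout and is not described for the drug groups. Each of the 5 groups had 3 replicates. Whether the replicates were separate cultures, and whether each line was a single clone, is not given in the sources used here, so p-values measure the spread between these libraries.

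Eph receptors are the largest family of receptor tyrosine kinases, and they bind ephrins that are held on the membrane of a neighboring cell. A-type receptors mostly bind ephrin-A ligands, which are tethered by a lipid anchor, and B-type receptors mostly bind ephrin-B ligands, which span the membrane and signal backwards into the cell that carries them. EPHA4 binds ligands of both types. The family is known for steering cell positioning, adhesion and repulsion, and in breast epithelium EPHA2 and EPHB4 have been studied as drivers of tumor growth, while EPHB6 has an inactive kinase domain.

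The sequence immediately upstream of the start site is shown for the member with the largest fall under erlotinib (EPHA2) and for both members that rose (EFNA1 and EFNB1). The RefSeq promoter table (GRCh38.p14) held a window for each of the 10 members, and the 250 bases before the start site were searched on both strands for TGACGTCA (CRE), TGANTCA (AP-1), CCGGAA (ETS), ACATTCC (TEAD), TGTTTAC (FOXO) and GGGCGG (GC box). EPHA4 and EPHB2 had 2 windows each, of which only the one nearest the 5′ end of the gene was searched. Each sequence is written 5′ to 3′ on the strand of its gene, with every match in capitals.
EPHA2, chr1:16156070-16156319, minus strand: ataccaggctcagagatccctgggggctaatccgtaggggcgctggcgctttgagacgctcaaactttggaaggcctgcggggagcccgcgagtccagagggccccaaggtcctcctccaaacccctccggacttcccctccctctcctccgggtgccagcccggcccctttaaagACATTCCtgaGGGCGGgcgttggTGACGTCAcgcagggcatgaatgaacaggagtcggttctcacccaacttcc
EFNA1, chr1:155127626-155127875, plus strand: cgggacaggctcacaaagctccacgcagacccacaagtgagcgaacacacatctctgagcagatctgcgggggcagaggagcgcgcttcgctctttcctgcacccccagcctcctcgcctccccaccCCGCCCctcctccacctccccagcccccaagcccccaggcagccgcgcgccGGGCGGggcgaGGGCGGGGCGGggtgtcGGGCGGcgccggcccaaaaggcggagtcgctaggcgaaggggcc
EFNB1, chrX:68828771-68829020, plus strand: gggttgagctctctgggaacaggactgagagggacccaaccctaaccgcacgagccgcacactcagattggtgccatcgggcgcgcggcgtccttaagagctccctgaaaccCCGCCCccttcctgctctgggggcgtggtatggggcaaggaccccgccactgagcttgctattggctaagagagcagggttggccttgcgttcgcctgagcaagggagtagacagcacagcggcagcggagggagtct
The EPHA2 window held a CRE from -51 to -44 and a TEAD match from -74 to -68, counted from the start site, with a GC box between them. Among 35116 windows of the same length, 1.65% held the CRE letters and 2.96% the TEAD letters, and among the members EPHA2 alone held either. The EFNA1 window held 5 GC boxes, some of which overlap, and the EFNB1 window held 1. A GC box was found in 10 of 10 members and in 42.6% of all windows. None of the searched windows of the members held the AP-1, ETS or FOXO letters, which 6.57%, 14.5% and 2.98% of all windows held. The start site that follows the EPHB6 window lies 7695 bases from the 5′ end of the gene in GENCODE 44, inside the annotated gene. A match is a description of letters, and no binding was measured.

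All 10 members passed the filter on low counts, with 228 to 6840 counts per library. Levels are in CPM, counts divided by the library total after scaling of the 15 totals with edgeR's TMM method, and levels of different genes are compared as CPM per kb of exon. Library totals ranged from 22915676 to 35900649 counts, and every pair of replicates differed by more than sampling noise (chi-square per degree of freedom 2.69 to 24.5). EGFR itself stood at 4730 ± 360 CPM (SD, n = 3) in EGF, 6140 ± 372 in cSNX1.3, 4710 ± 246 in erlotinib, 1340 ± 168 in WT and 1730 ± 33.7 in ΔNLS, where reads of the introduced construct and of the endogenous gene count together. DUSP6 and SPRY4, which respond to EGFR kinase signaling, were at 12.8 ± 0.902 and 7.56 ± 1.38 CPM in EGF and at 0.416 ± 0.173 and 0.232 ± 0.14 CPM in erlotinib. The epithelial markers summed to 22300 to 27500 CPM in EGF, 26400 to 32200 in cSNX1.3, 14400 to 16000 in erlotinib, 21000 to 23700 in WT and 13800 to 16600 in ΔNLS, with 8 of 8 genes detected in every group, while the 6 leukocyte markers summed to at most 0.623 CPM in any library, with NCR1 at 0. Of the 2 luminal receptor markers, the progesterone receptor gene PGR was at 0 counts in all libraries and the estrogen receptor gene ESR1 was at 2.79 to 8.42 CPM. The epithelial sums consist mostly of keratin and EGFR counts: from EGF to erlotinib KRT8 went from 6030 ± 931 to 2600 ± 142 CPM, while EPCAM was at 387 ± 47.6 and 354 ± 17.8 CPM and CDH1 at 93.7 ± 3.33 and 129 ± 5.14 CPM. The 5 endothelial markers summed to 9.66 to 10.1 CPM in EGF, 9.24 to 11.1 in cSNX1.3, 12.4 to 15.2 in erlotinib, 14.3 to 15.2 in WT and 15.8 to 17.1 in ΔNLS. In EGF and erlotinib these were mostly KDR (7.83 ± 0.439 and 11.9 ± 1.61 CPM). At low counts, TEK was lower in erlotinib (6 to 9 and 0 to 1 counts per library) and VWF was higher (1 to 6 and 15 to 29). In WT and ΔNLS, KDR was at 8.5 ± 0.332 and 9.78 ± 0.439 CPM, PECAM1 at 5.17 ± 0.638 and 5.18 ± 0.267, and CDH5 at 0.371 ± 0.12 and 0.9 ± 0.0491. The lower epithelial and higher endothelial marker sums in erlotinib and ΔNLS moved with the results given for those groups, and their part in the results was not tested. In bulk RNA, fewer cells that express a gene and less RNA per cell cannot be told apart.

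Per length, EPHB6 was the most abundant member in EGF at 44.4 ± 1.62 CPM per kb (SD, n = 3), followed by EFNA1 at 33.8 ± 1.87 and EPHB4 at 20.1 ± 0.61. EPHB3 (12.8 ± 1.2) and EPHA2 (12.2 ± 0.627) did not differ beyond their spread, and neither did EFNB1 (9.28 ± 0.529), EFNB2 (8.98 ± 0.101) and EPHB2 (8.98 ± 0.248), as computed over all exonic bases. EFNB2 shares 1822 of its 5005 exonic bases with a lncRNA on the opposite strand, where reads could not be assigned. Its level per kb may therefore be too low, and its place beside EFNB1 and EPHB2 is uncertain. EPHA1 (7.27 ± 0.0784) and EPHA4 (3.93 ± 0.0996) were the lowest members. As a share of the summed level of all 22 Eph and ephrin genes, EPHB6 took 23.4% in EGF, 24.0% in cSNX1.3, 11.8% in erlotinib, 22.8% in WT and 13.4% in ΔNLS. The share of EFNA1 was 17.8% in EGF, 19.4% in cSNX1.3, 29.6% in erlotinib, 14.9% in WT and 20.6% in ΔNLS, so that EFNA1 and not EPHB6 led the family in erlotinib and ΔNLS. EPHA2 ranked between 4 and 6 of the 22 in 4 groups and 14 in erlotinib, at 2.73 ± 0.413 CPM per kb.

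**Figure D1:**
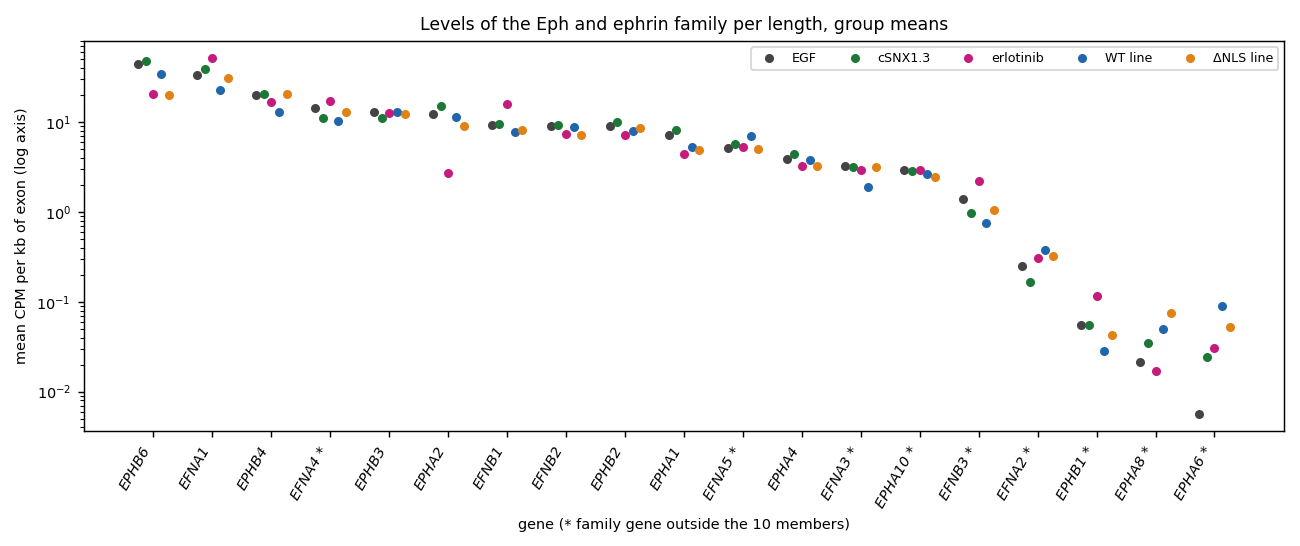
Mean level of the Eph and ephrin genes per kb of exon (log axis) in the 5 groups, ordered by the level in EGF, with genes of at most 2 counts in every library left out. The EPHA2 point for erlotinib, at 2.73 CPM per kb, lies far below its other points, while EFNA1 and EFNB1 are highest in erlotinib.

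With erlotinib, 7 of the 10 members fell and 2 rose. EPHA2, EPHB6 and EPHA1 fell the most, EPHB2, EFNB2, EPHA4 and EPHB4 fell by less than 0.35 on the log2 scale, the ligands EFNB1 and EFNA1 rose, and EPHB3 did not pass the test. Tests were made with edgeR's quasi-likelihood test and Benjamini-Hochberg adjustment over all genes tested (edgeR adjusted p), with a threshold of 0.05. Of the 15738 genes tested, 44.0% were called in this comparison, 22.8% higher and 21.2% lower, against 9 of 10 members. The members were chosen with earlier results of these data known and had at least 228 counts in every library. The share covers all genes that passed the filter, also those with low counts. The median log2 fold change was -0.27 over the members and 0.01 over all genes, and the median size was 0.46 against 0.34. The erlotinib and EGF ranges did not overlap for 9 of 10 members, against 52.3% of all genes.

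EPHA2, the receptor of ephrin-A1 and the member that changed the most, stood at 53.4, 48.2 and 50.0 CPM in the EGF libraries and at 12.4, 9.33 and 12.1 CPM in the erlotinib libraries. It was at 62.1, 67.2 and 58.6 CPM in cSNX1.3, 48.4, 41.6 and 51.2 CPM in WT and 39.0, 33.5 and 38.6 CPM in ΔNLS. All 3 erlotinib libraries lay far below every other library. The log2 fold change in erlotinib vs. EGF was -2.15 ± 0.11 (SE, edgeR adjusted p = 1.01e-09). In the order of group means, cSNX1.3 was above EGF, EGF and WT overlapped, and ΔNLS and erlotinib each lay below the group before it. The CRE of its upstream window was given with the sequence, and no measurement here bears on its use.

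EPHA1, an ephrin-A receptor of epithelial cells, stood at 34.0, 33.9 and 34.6 CPM in EGF and 20.5, 18.9 and 22.5 CPM in erlotinib. The ranges were well apart, and the log2 fold change was -0.71 ± 0.09 (edgeR adjusted p = 1.90e-05). Its levels in WT (24.9 ± 1.22 CPM), ΔNLS (22.9 ± 1.4) and erlotinib (20.7 ± 1.82) overlapped from one group to the next. EPHA4, which can bind both ligand types, went from 29.0, 30.5 and 29.5 CPM in EGF to 23.1, 27.5 and 22.9 CPM in erlotinib, a log2 fold change of -0.27 ± 0.10 (edgeR adjusted p = 0.0337). The highest erlotinib library, replicate 2, came within 1.5 CPM of the lowest EGF library. Of the 6 fits that left out 1 library, the one without erlotinib replicate 2 kept the EPHA4 call, and without EGF replicate 1, 2 or 3, or erlotinib replicate 1 or 3, the edgeR adjusted p was 0.0663, 0.0647, 0.0821, 0.0939 and 0.130. The call was also lost with no filter on low counts (edgeR adjusted p = 0.0551) and in a fit of the 2 groups alone (edgeR adjusted p = 0.0517).

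Among the B-type receptors, the kinase-inactive EPHB6 fell the most. It stood at 235, 246 and 229 CPM in EGF and 128, 99.7 and 96.9 CPM in erlotinib, with no overlap. The log2 fold change was -1.12 ± 0.10 (edgeR adjusted p = 3.71e-07), and the level in erlotinib overlapped with that in ΔNLS. EPHB2, a receptor of ephrin-B ligands known for positioning of epithelial cells, went from 116, 109 and 112 CPM to 95.9, 85.0 and 87.3 CPM, a log2 fold change of -0.32 ± 0.08 (edgeR adjusted p = 0.00541).

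EPHB4, the main receptor of ephrin-B2, stood at 133, 129 and 126 CPM in EGF and 118, 93.8 and 111 CPM in erlotinib. The log2 fold change was -0.25 ± 0.09 (edgeR adjusted p = 0.0363). Replicate 2 was the lowest erlotinib library, and without it the log2 fold change was -0.16 (edgeR adjusted p = 0.139). The EPHB4 call was also lost without erlotinib replicate 3, EGF replicate 1 or EGF replicate 3, with an edgeR adjusted p of 0.0591, 0.116 and 0.0675. EPHB3, another B-type receptor of epithelial cells, stood at 55.5, 64.1 and 54.1 CPM in EGF and 63.6, 53.7 and 54.1 CPM in erlotinib, and the groups overlapped almost entirely. Its log2 fold change was -0.01 ± 0.10, with a 95% interval of -0.23 to 0.21 (edgeR adjusted p = 0.957), and the sign turned under 4 alternatives.

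The ligands moved in both directions. EFNB1, a transmembrane ligand of B-type receptors, stood at 30.6, 32.4 and 28.9 CPM in EGF and 57.0, 49.0 and 52.7 CPM in erlotinib, and every erlotinib library lay above all libraries of the other 4 groups. The log2 fold change was 0.80 ± 0.09 (edgeR adjusted p = 5.13e-06). EFNA1, the lipid-anchored ligand of EPHA2, stood at 74.3, 68.8 and 76.7 CPM in EGF and 103, 105 and 123 CPM in erlotinib, also without overlap with any other group. Its log2 fold change was 0.60 ± 0.09 (edgeR adjusted p = 8.70e-05). EFNB2, the ligand that EPHB4 prefers, went from 45.5, 44.6 and 44.7 CPM to 35.0, 40.4 and 35.3 CPM, a log2 fold change of -0.28 ± 0.09 (edgeR adjusted p = 0.0196). The EFNB2 call was lost without EGF replicate 1 or 3 or erlotinib replicate 1 or 3, with an edgeR adjusted p of 0.0637, 0.0556, 0.0580 and 0.0795.

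**Figure D2:**
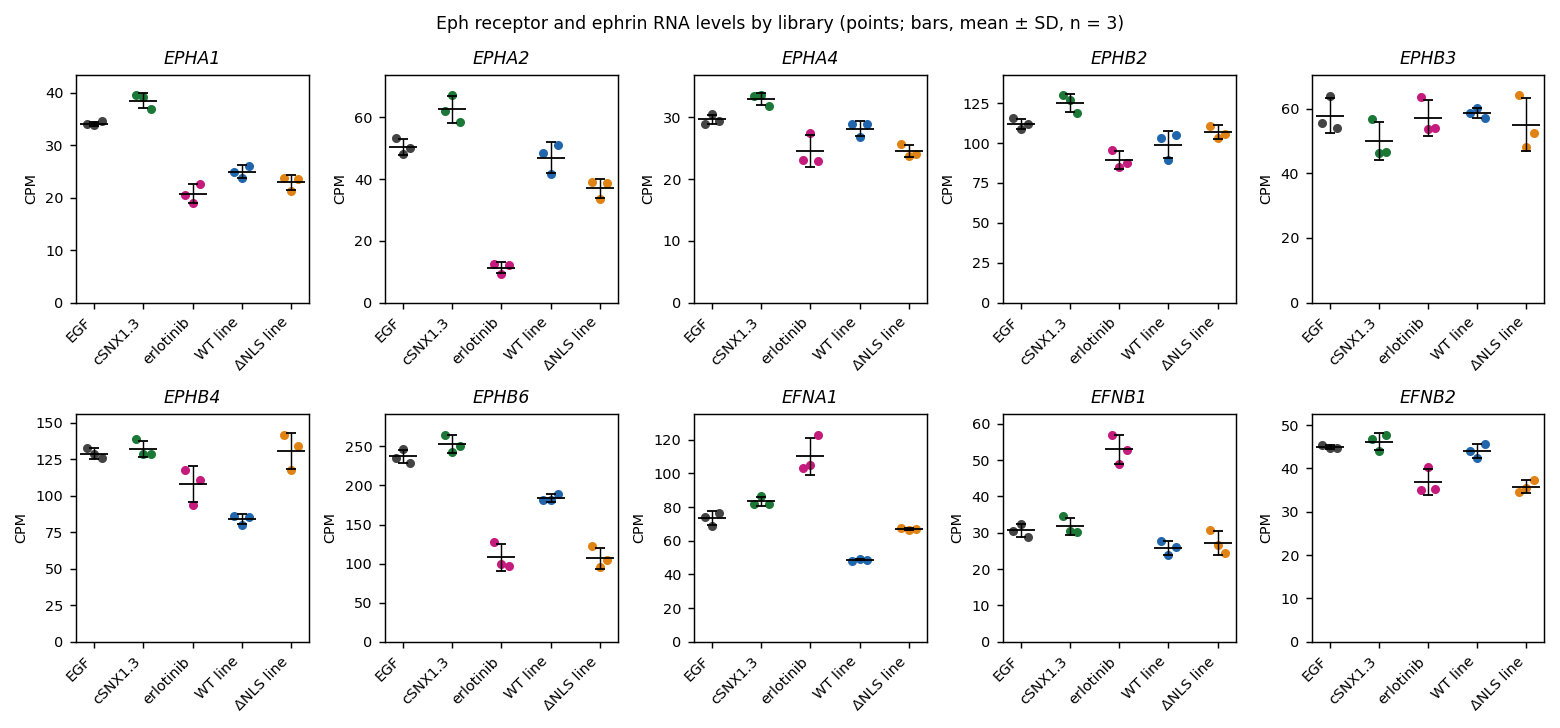
CPM of each member in every library (points) of the 5 groups, with the mean and SD (bars, n = 3). EPHA2 and EPHB6 are lower in erlotinib than in EGF, EFNA1 and EFNB1 are highest in erlotinib, and the EPHB4 points of WT, at 80.3 to 86.2 CPM, lie below those of all other groups.

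With cSNX1.3, 0 of the 10 members were called, while 6.07% of the 15738 genes tested were (3.38% higher and 2.69% lower). DESeq2 also called 0 members, and 1 member, EPHA2, had an unadjusted p under 0.05. EPHA2 was at 62.6 ± 4.33 CPM in cSNX1.3 and 50.5 ± 2.59 CPM in EGF (SD, n = 3), a log2 fold change of 0.31 ± 0.10 with a 95% interval of 0.09 to 0.53 (edgeR adjusted p = 0.0974). Its edgeR or DESeq2 adjusted p ranged from 0.0619 to 0.363 over the alternatives. The fold change had a positive sign for 9 members, and the median was 0.13 against 0.00 over all genes. For 5 members (EPHA1, EPHA2, EPHA4, EPHB2 and EFNA1) all cSNX1.3 libraries lay above all EGF libraries, against 25.7% of all genes without overlap in either direction. EPHB3 alone had a negative sign, with 56.9, 46.4 and 46.5 CPM in cSNX1.3, a log2 fold change of -0.21 and a 95% interval of -0.43 to 0.01. The 95% intervals of the 10 members together spanned -0.43 to 0.53, so that larger changes lie outside every interval.

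Set directly against erlotinib, cSNX1.3 differed in 9 of the 10 members, all except EPHB3, and 56.1% of all genes tested were called. EPHA2 was higher in cSNX1.3 by 2.46 ± 0.11 on the log2 scale (edgeR adjusted p = 7.51e-11) and EPHB6 by 1.22 ± 0.10 (edgeR adjusted p = 6.89e-08). EPHA1 was higher by 0.89, EPHB2 by 0.48, EPHA4 by 0.42, EFNB2 by 0.32 and EPHB4 by 0.29, and EFNB1 and EFNA1 were lower, with log2 differences of -0.75 and -0.41. The EPHB4 difference was 0.20 without erlotinib replicate 2 (edgeR adjusted p = 0.0591), and EPHB3 was called without cSNX1.3 replicate 1, at -0.30 (edgeR adjusted p = 0.0237).

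The ΔNLS line differed from the WT line in 5 members. EPHB4 and EFNA1 rose, EPHB6, EPHA2 and EFNB2 fell, and the other 5 were not called. Of the 15805 genes tested in this comparison, 41.4% were called, 20.4% higher and 21.0% lower, and the groups did not overlap for 6 of 10 members and 52.2% of all genes. The median log2 fold change of the members was -0.11, and the median size was 0.25 against 0.26 over all genes. EGFR RNA was also higher in ΔNLS than in WT, by 0.37 ± 0.09 on the log2 scale (edgeR adjusted p = 0.00367), and its part in these differences was not tested.

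EPHB4 was at 86.2, 80.3 and 85.8 CPM in WT and 142, 118 and 134 CPM in ΔNLS. All ΔNLS libraries lay far above the WT libraries and overlapped with EGF and cSNX1.3. The log2 fold change was 0.64 ± 0.08 (edgeR adjusted p = 4.37e-06). Its preferred ligand EFNB2 went the other way, from 43.9, 42.5 and 45.6 CPM to 34.5, 35.4 and 37.3 CPM, a log2 fold change of -0.30 ± 0.07 (edgeR adjusted p = 0.00366).

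EPHB6 went from 181, 181 and 189 CPM in WT to 122, 95.8 and 104 CPM in ΔNLS, a log2 fold change of -0.78 ± 0.08 (edgeR adjusted p = 1.31e-06). EPHA2 had a log2 fold change of -0.35 ± 0.09 (edgeR adjusted p = 0.00505), and the highest ΔNLS library (39.0 CPM) lay just under the lowest WT library (41.6 CPM). EFNA1 was at 48.2, 48.9 and 48.8 CPM in WT and 67.6, 66.2 and 66.9 CPM in ΔNLS, with a spread far smaller than the difference. Its log2 fold change was 0.46 ± 0.07 (edgeR adjusted p = 4.47e-05).

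EPHA4 was close to the threshold in ΔNLS vs. WT, with 28.9, 26.8 and 29.0 CPM in WT and 25.7, 23.8 and 24.1 CPM in ΔNLS. Its log2 fold change was -0.20 ± 0.08 (edgeR adjusted p = 0.0509), and it was called without ΔNLS replicate 1 (edgeR adjusted p = 0.0475) or WT replicate 2 (edgeR adjusted p = 0.0205). EPHB3, with 64.2, 48.3 and 52.6 CPM in ΔNLS, had a log2 fold change of -0.09 that became -0.21 without ΔNLS replicate 1 (edgeR adjusted p = 0.0415). EPHA1 (95% interval of the log2 fold change -0.30 to 0.05), EPHB2 (-0.05 to 0.26) and EFNB1 (-0.13 to 0.28) were not called.

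**Figure D3:**
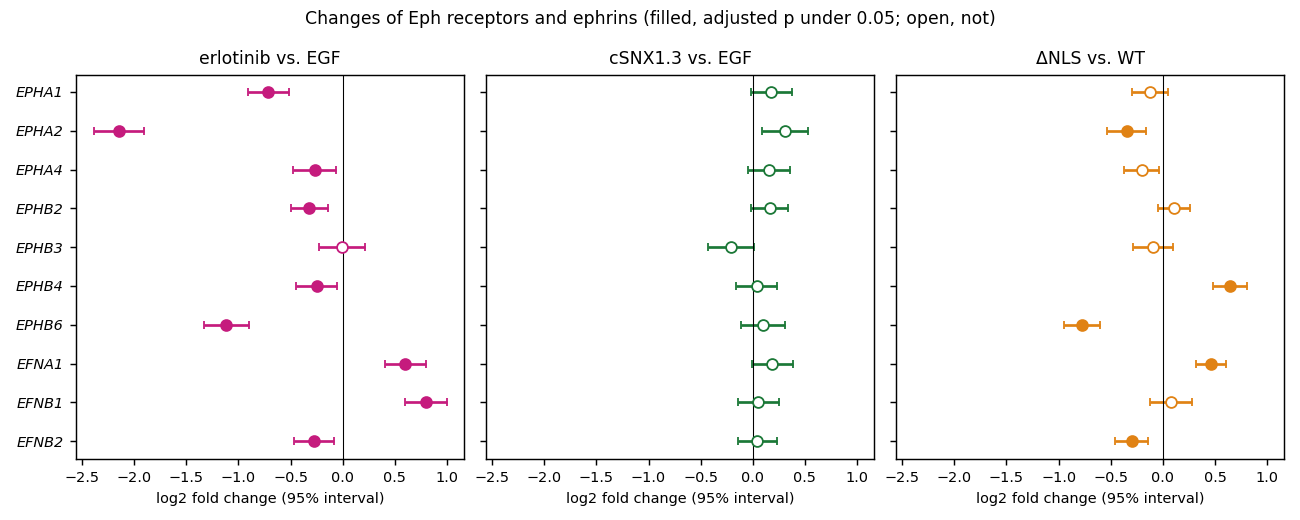
Log2 fold change of each member with its 95% interval in erlotinib vs. EGF, cSNX1.3 vs. EGF and ΔNLS vs. WT, with filled points for an edgeR adjusted p under 0.05. The erlotinib panel has 9 filled points, from -2.15 for EPHA2 to 0.80 for EFNB1, the cSNX1.3 panel has 0 and the ΔNLS panel has 5.

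The ΔNLS effect (ΔNLS vs. WT) was also tested against each drug effect (drug vs. EGF) by an interaction term with the 15 libraries fitted together. It differed from the cSNX1.3 effect for 5 members (EPHA2, EPHA4, EPHB4, EPHB6 and EFNB2), with 23.1% of 16524 genes called, and from the erlotinib effect for 6 members (EPHA1, EPHA2, EPHB2, EPHB4, EPHB6 and EFNB1), with 44.7% called. EPHB4 was higher in ΔNLS than in WT (0.64) and lower in erlotinib than in EGF (-0.25), and the difference of these effects was 0.90 ± 0.12 (edgeR adjusted p = 5.30e-06). For EFNA1 the effects were 0.46 and 0.60, and their difference of -0.13 was not called, with a 95% interval of -0.36 to 0.09. EFNB2 had effects of -0.30 and -0.28, which differed by -0.01 with a 95% interval of -0.24 to 0.21. The experiments differ in the cells as well as in the treatment, and across them the 2 cannot be told apart.

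Ligand and receptor levels were set side by side within each library, as the ratio of CPM per kb of exon, as a description with no test. The ratio of EFNA1 to its receptor EPHA2 was 2.66 to 2.93 in EGF, 2.47 to 2.67 in cSNX1.3 and 15.9 to 21.6 in erlotinib. In the lines it was 1.82 to 2.26 in WT and 3.31 to 3.78 in ΔNLS, so that erlotinib and ΔNLS each had more EFNA1 RNA per EPHA2 RNA than their control. The ratio of EFNB2 to EPHB4 was 0.439 to 0.458 in EGF, 0.435 to 0.475 in cSNX1.3 and 0.382 to 0.552 in erlotinib, which overlapped. It was 0.655 to 0.684 in WT and 0.312 to 0.387 in ΔNLS, with no overlap. As the EFNB2 level per kb may be too low, so may these ratios, which use the same length in every group. The ratio of EFNB1 to EPHB2 was 0.977 to 1.12 in EGF and 2.18 to 2.29 in erlotinib, and lay between 0.869 and 1.05 in the other 3 groups.

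**Figure D4:**
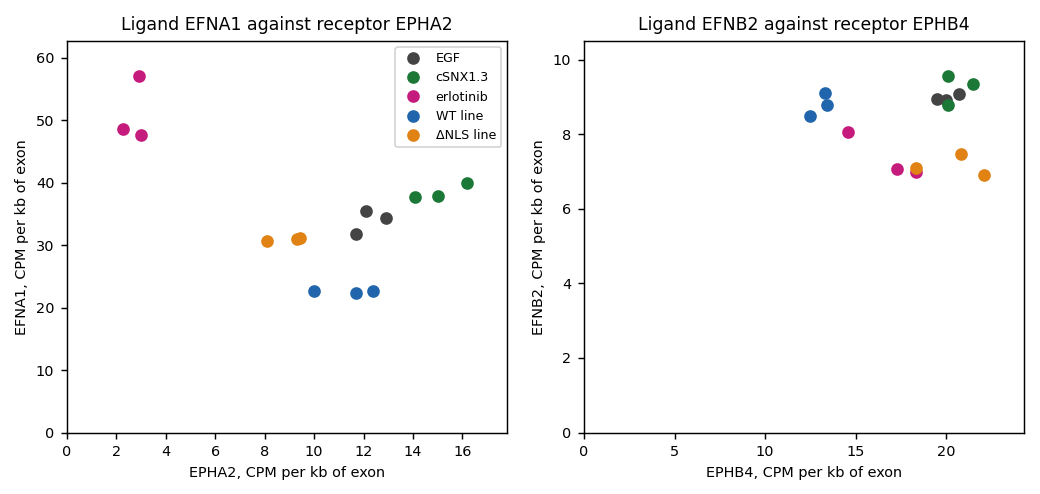
Ligand against receptor level (CPM per kb of exon) in every library for EFNA1 and EPHA2 (left) and EFNB2 and EPHB4 (right), colored by group. The 3 erlotinib libraries stand alone at the upper left of the EFNA1 panel, and in the EFNB2 panel the WT and ΔNLS libraries separate on both axes.

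The other 12 genes of the family ranged from undetected to levels among those of the members, with EFNA4 at 14.5 ± 1.11 and EFNA5 at 5.21 ± 0.191 CPM per kb in EGF (SD, n = 3). EPHA3 had 0 counts in all 15 libraries, which allows up to 3 counts per library, and EPHA5 and EPHA7 had at most 2 counts. Of the 12, 7 stayed under 2 CPM in every library. The receptor EPHA10 (19.7 to 27.2 CPM) and the ligands EFNA5 (28.1 to 41.2 CPM), EFNA4 (11.7 to 22.7 CPM), EFNA3 (3.37 to 7.74 CPM) and EFNB3 (1.92 to 7.71 CPM) were the ones expressed. With erlotinib, 3 of the 8 tested were called (37.5%, against 44.0% of all genes), all higher (22.8% of all genes), and 2 were called in each fit that left out 1 library. EFNB3, a transmembrane ligand, rose from 4.43 ± 0.662 to 7.16 ± 0.642 CPM, a log2 fold change of 0.70 ± 0.15 (edgeR adjusted p = 0.00157). The receptors EPHA6 and EPHB1, named because so few were called, were called on 15 to 16 counts against 1 to 4 and on 14 to 27 counts against 6 to 10 per library. Both passed the filter on low counts through treated libraries, where they were high, so a call as higher was favored in advance. With at least 10 counts in every library, 1 of the other family genes was called. The share of the 8 and its direction are therefore not like for like with those of all genes. EPHA6 was also the 1 of the 8 called with cSNX1.3 (12.5%, against 6.07% of all genes), on 9 to 12 counts against 1 to 4. As EPHA6 passed the filter through treated libraries, these shares too are not like for like. The call was lost without cSNX1.3 replicate 2 or 3 or EGF replicate 1 or 3.

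In ΔNLS vs. WT, 4 of the 7 other family genes tested were called (57.1%, against 41.4% of all genes). The ligands EFNA3 and EFNA4 rose, from 3.69 ± 0.305 to 6.21 ± 0.577 CPM and from 13.1 ± 0.576 to 16.3 ± 1.58 CPM, with log2 fold changes of 0.75 ± 0.13 and 0.32 ± 0.10 (edgeR adjusted p = 0.000317 and 0.0156). These neighbors on chromosome 1 share exons with a readthrough gene, so their counts are uncertain. EFNA5 fell from 39.7 ± 1.48 to 28.4 ± 0.328 CPM, a log2 fold change of -0.48 ± 0.07 (edgeR adjusted p = 7.55e-05). EPHA6, at 48 to 65 counts in WT and 22 to 37 in ΔNLS, was the fourth.

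Genes that act with Eph receptors and ephrins in the cell (kinases, adaptors, guanine nucleotide exchange factors, phosphatases and sheddases) were taken as a list of 51, of which 49 were tested. With erlotinib, 22 were called (44.9% of those tested, near the 44.0% of all genes), 3 higher and 19 lower, with a median log2 fold change of -0.10. VAV3, an exchange factor that binds activated Eph receptors, rose from 85.1 ± 3.27 to 247 ± 32.9 CPM (log2 fold change 1.55 ± 0.10, edgeR adjusted p = 7.06e-09). NGEF (ephexin), an exchange factor that EPHA4 activates, fell from 39.4 ± 3.38 to 13.6 ± 2.41 CPM (log2 fold change -1.52 ± 0.12, edgeR adjusted p = 5.20e-08). The phosphatase PTPRJ and the Src family kinase FYN fell by 0.83 and 0.80 on the log2 scale.

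With cSNX1.3, 6 of the 49 were called (12.2%, against 6.07% of all genes), 5 higher and 1 lower, with a median log2 fold change of 0.08. FYN rose from 11.8 ± 1.11 to 21.7 ± 0.555 CPM (log2 fold change 0.88 ± 0.12, edgeR adjusted p = 0.000190), and the kinase ABL2 and the ubiquitin ligase CBLB had log2 fold changes of 0.66 and 0.54. TNS3, a focal adhesion adaptor, went from 93.9 ± 6.92 to 59.4 ± 4.18 CPM (log2 fold change -0.66 ± 0.09, edgeR adjusted p = 0.000364). These 4 were called with cSNX1.3, and no member was.

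In ΔNLS vs. WT, 29 of the 49 were called (59.2%, against 41.4% of all genes), 17 higher and 12 lower, with a median log2 fold change of 0.10. MMP14, a membrane protease that cuts EPHA2, rose from 10.8 ± 0.665 to 26.4 ± 2.55 CPM (log2 fold change 1.29 ± 0.10, edgeR adjusted p = 2.78e-08). ADAM10, the protease that sheds ephrins, went from 257 ± 11.6 to 156 ± 7.29 CPM (log2 fold change -0.72 ± 0.07, edgeR adjusted p = 4.53e-07). The scaffold GRIP1, which binds ephrin-B tails, and the exchange factor VAV2 had log2 fold changes of 0.89 and 0.60.

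**Figure D5:**
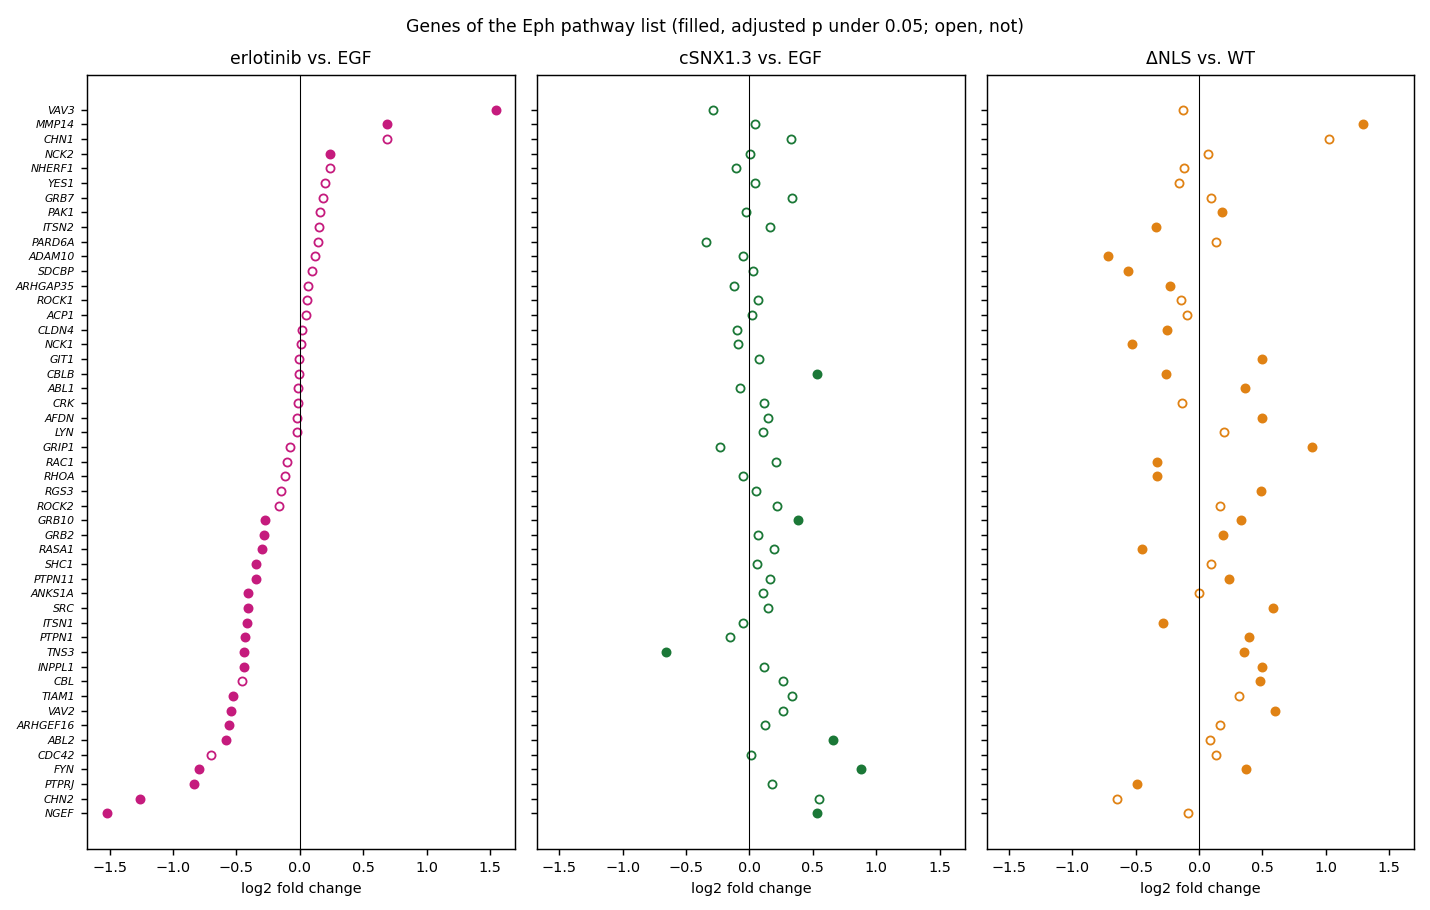
Log2 fold change of the 49 tested genes of the Eph pathway list in the 3 comparisons, ordered by erlotinib vs. EGF, with filled points for an edgeR adjusted p under 0.05. VAV3 (1.55) and NGEF (-1.52) mark the ends of the erlotinib panel, and MMP14 (1.29) is the highest point of the ΔNLS panel.

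Over the 15 libraries and 12018 protein-coding genes whose mean was 1 CPM or more, the genes whose log2 CPM was most like that of EPHA2 were DUSP4 (Pearson's r 0.987), SH3TC2 (0.986) and MYEOV (0.986). For EFNB1 they were RNF187 (0.970), PKIG (0.969) and DCAKD (0.959). These values describe libraries that fall into 5 groups and share the cell line.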

How the data were processed

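RNA-Seq read pairs of 15 libraries (3 per group, groups from the sample titles) were processed by the authors with TrimGalore, STAR (GRCh38) and an unstranded featureCounts run, and they deposited raw counts that are not normalized. The annotation release is not given in the sources used here. Of 61552 Ensembl IDs, 61399 were matched to GENCODE 44 for names, positions and exon lengths (all exons of a gene merged), and 153 were not.

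Counts were tested with edgeR 4.0.16 in R 4.3.3 (TMM, filterByExpr by group, robust quasi-likelihood fit, Benjamini-Hochberg adjusted p under 0.05). Drug comparisons were fitted on 9 libraries, ΔNLS vs. WT on 6 and interactions on 15. SEs come from the model. The test was checked on simulated data, where it missed some of the smaller changes and some of its calls were false. Because strand was not used, reads in exons shared with genes on the opposite strand could not be assigned. EPHA1 shares 82 exonic bases with ZYX, EPHB4 69 with SLC12A9, and EPHA4 and EFNB2 share 353 and 1822 with lncRNAs.

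The members and gene lists were chosen with earlier results of these data known. Named are all members, called genes of the family, in each comparison the 4 called pathway genes with the largest change and a mean of at least 1 CPM, EGFR, DUSP6 and SPRY4. For the members with the largest fall and rise with erlotinib, the 3 genes most like them are named, by Pearson's r of log2 CPM (prior count 2). Alternatives were DESeq2 1.42.0 or its size factors, no filter, at least 10 counts in every library, other sets of libraries, a threshold of 0.01, a replicate block and leaving out single libraries.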

Additional observations from a re-analysis of the deposited data

Results flagged for a closer look

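The effect of the ΔNLS mutation (ΔNLS vs. WT) differed from a drug effect (drug vs. EGF) by an interaction test for several members, and the values are differences of log2 fold changes from edgeR's quasi-likelihood fit of all 15 libraries. Against cSNX1.3 the difference was -0.65 for EPHA2, -0.36 for EPHA4, 0.61 for EPHB4, -0.87 for EPHB6 and -0.34 for EFNB2. The EPHA4 and EFNB2 differences each lost their call when any of 8 of the 12 libraries was left out, and also with no filter on low counts. Against erlotinib the difference was 0.60 for EPHA1, 1.81 for EPHA2, 0.44 for EPHB2, 0.90 for EPHB4, 0.35 for EPHB6 and -0.71 for EFNB1. EPHA2 and EPHB6 fell in both ΔNLS and erlotinib, by less in ΔNLS, and the EPHB6 difference lost its call when any of 10 of the 12 libraries was left out. Groups of 3 libraries were not tested for outlying samples.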

How the results depend on the processing

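The counts of called members in erlotinib vs. EGF (9, and 6 to 8 when 1 library was left out), cSNX1.3 vs. EGF (0), ΔNLS vs. WT (5, and 5 to 7), cSNX1.3 vs. erlotinib and the erlotinib interaction stayed within 1.5 times under every alternative run. In the cSNX1.3 interaction, 3 members instead of 5 were called with no filter on low counts or an adjusted p under 0.01, and 3 to 5 when 1 library was left out (3 without EGF replicate 1 or 3, ΔNLS replicate 2, or WT replicate 1 or 3), while all genes called went from 3819 to 2359 at an adjusted p under 0.01. The 956 genes called in cSNX1.3 vs. EGF became 1444 in the fit of all 15 libraries, 470 at an adjusted p under 0.01 and 526 to 892 when 1 library was left out (526 without cSNX1.3 replicate 2, 531 without EGF replicate 1 and 592 without EGF replicate 3). Of the other family genes, 1 instead of 3 was called in erlotinib vs. EGF with at least 10 counts in every library and 2 whichever library was left out, and 2 instead of 4 in ΔNLS vs. WT at an adjusted p under 0.01. In cSNX1.3 vs. EGF the 1 such gene became 0 with DESeq2, at least 10 counts, only the 2 groups compared, the replicate block or an adjusted p under 0.01, 2 in the fit of all 15 libraries and 0 to 1 when 1 library was left out. The causes were not tested.

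Signs turned only for members that were not called. EPHB3 in erlotinib vs. EGF was 0.014 with at least 10 counts and -0.090 to 0.054 when 1 library was left out. When 1 library was left out, EFNB1 was -0.0050 to 0.084 in cSNX1.3 vs. EGF, -0.017 to 0.15 in ΔNLS vs. WT and -0.071 to 0.10 in the cSNX1.3 interaction, EPHB3 was -0.0028 to 0.23 in the cSNX1.3 interaction and -0.20 to 0.0014 in the erlotinib interaction, and EFNB2 was -0.066 to 0.046 in the erlotinib interaction. Of 910 alternative values of the members' log2 fold changes and differences, 838 kept their direction and their side of the threshold, 51 lost the call, 6 gained it and 15 turned sign. Leaving out libraries in the interactions was chosen after seeing the data.

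Replicate numbers did not pair the libraries: deviations of same-numbered libraries correlated between -0.20 and 0.25, over 0.1 in 2 of 12 pairs. With the replicate block, 9, 0 and 5 members were called in the 3 main comparisons and no call of a member changed.

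With 3 libraries per group, the smallest change of a member called in the 3 main comparisons was -0.25 on the log2 scale (EPHB4, erlotinib vs. EGF). This size does not hold for every comparison: EPHA2 in cSNX1.3 vs. EGF changed by 0.31 and was not called (edgeR adjusted p = 0.0974). The adjustment is stricter where fewer genes are called, 6.07% with cSNX1.3 and 44.0% with erlotinib. Counts of called members are therefore not like for like between these comparisons.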
